A study of Mus musculus with 9 samples.

Results

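The TGF-beta pathway was followed through 9 genes of mouse adult fibroblasts: the ligand genes Tgfb1, Tgfb2, Tgfb3 and Inhba, the receptor genes Tgfbr1, Tgfbr2 and Tgfbr3, and Smad7 and Skil, which the pathway itself induces and which restrain it. They were chosen by symbol for their place in the pathway, with earlier results of these data known. They are 9 of 53465 genes in the count table, and all 9 were among the 14088 genes that passed the low-count filter. RNA was sequenced from 3 libraries of cells given DPI for 72 h, 3 of cells given DPI for 24 h and 3 controls. DPI is taken to be diphenyleneiodonium, an inhibitor of flavin-dependent enzymes, because the series concerns targeting of the flavin cofactor of respiratory complex I. The labels name no genotype, strain, animal age or dose, and do not say whether controls received a vehicle or when they were collected. In every comparison, DPI and the time cells spent in culture cannot be told apart.

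TGF-beta ligands are secreted in a latent form, held in the matrix, and released by integrins and proteases. The active ligand binds the type II receptor, which joins and phosphorylates the type I receptor, and that receptor phosphorylates Smad2 and Smad3, which enter the nucleus with Smad4 and switch target genes. In fibroblasts the pathway is best known for driving collagen and other matrix genes and for the contractile myofibroblast state.

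Libraries held from 15292736 to 17923656 counts. The labels do not say that libraries came from separate cultures, so the spread behind each p-value may be technical. Ribosomal protein genes took 3.46% to 3.64% of counts in DPI 72 h libraries, 3.09% to 3.18% in DPI 24 h libraries, and 3.72%, 5.01% and 3.76% in controls 1, 2 and 3. Control replicate 2 was the control farthest from the others. Control replicate 2 had the lowest value among controls for 7 of the 9 genes and the highest for 1. Without it, the counts of these genes called in each comparison were the same as with it. Of 11 fibroblast markers, 9 were at 1 CPM (counts scaled to library size) or more. The summed level of the fibroblast markers, nearly all Col1a1, Col1a2, Vim, Fn1 and S100a4, was 11420 to 12880 CPM in DPI 72 h libraries. It was 13410 to 14080 CPM in DPI 24 h and 7228 to 8726 CPM in control libraries. Over all libraries Col3a1 was at 1.16 to 6.67 CPM, Dcn at 0.911 to 4.45 CPM and Pdgfra at 6.67 to 17.06 CPM. Col1a1 is also among the target genes below. Thy1 had at most 2 counts and Lum at most 1 in any library. The 8 macrophage markers summed to 6.56 to 7.66 CPM in DPI 72 h and 8.13 to 10.2 CPM in DPI 24 h libraries. In controls they summed to 6.87 to 9.99 CPM. Adgre1 was at 0. Cd68, at 1.88 to 4.91 CPM over all libraries, and Cd14, at 2.43 to 4.68 CPM, made up most of these sums. The 7 endothelial markers summed to 1.09 to 2.12 CPM in DPI 72 h and 3.64 to 4.74 CPM in DPI 24 h libraries. In controls they summed to 2.06 to 2.26 CPM. Emcn had 0 or 1 count. Kdr was at 0.556 to 0.972 CPM in DPI 72 h, 2.497 to 3.425 CPM in DPI 24 h and 1.387 to 1.599 CPM in control libraries. The 8 keratinocyte markers summed to 9.35 to 9.93 CPM in DPI 72 h, 4.99 to 5.88 CPM in DPI 24 h and 4.90 to 6.64 CPM in control libraries, with Krt5 and Krt1 at 0. The 6 adipocyte markers, nearly all Pparg, summed to 49.7 to 59.8 CPM in DPI 72 h, 35.2 to 35.9 CPM in DPI 24 h and 39.1 to 49.4 CPM in control libraries, with Adipoq and Lep at 0. The 7 muscle markers summed to at most 2.21 CPM, with Myog at 0. The part of these marker levels in the results was not tested.

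At 24 h of DPI, 6 of the 9 genes rose and none fell: Tgfb3, Tgfb2, Inhba, Tgfbr2, Tgfbr3 and Skil. Tgfb1, Tgfbr1 and Smad7 did not pass the test. At 72 h Tgfb2, Tgfb3, Inhba and Tgfbr2 were still above controls, while Tgfb1, the most studied of the ligands, was below. Between the exposures, Tgfb1, Tgfb2, Tgfb3, Tgfbr2 and Tgfbr3 were lower at 72 h than at 24 h, and Inhba, Tgfbr1, Smad7 and Skil did not pass the test. A gene is called here when its edgeR quasi-likelihood p, adjusted by Benjamini-Hochberg over the 14088 genes, is under 0.05. By that rule 24.7% of all genes were called at 24 h against controls, 12.4% higher and 12.3% lower. At 72 h against controls 8.56% were called, 4.73% higher and 3.83% lower, and here 4 of the 9 genes were higher and 1 lower. For 72 h against 24 h the shares were 21.3% in all, 10.1% higher and 11.2% lower, and 5 of the 9 genes were lower and none higher. The counts of 0, lower at 24 h and higher at 72 h against 24 h, were also 0 at an unadjusted edgeR p under 0.05 and with DESeq2 and limma voom. The median log2 fold change of the 9 genes was 0.44 at 24 h, 0.27 at 72 h and -0.41 for 72 h against 24 h, beside -0.0056, -0.0050 and 0.0019 over all genes tested. Because the 9 genes were chosen with earlier results of these data known, their counts and medians beside those of all genes are a description, not a test. The 24 h and 72 h comparisons share the same control libraries. In bulk RNA, fewer cells expressing a gene and less of its RNA per cell cannot be told apart.

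**Figure D1:**
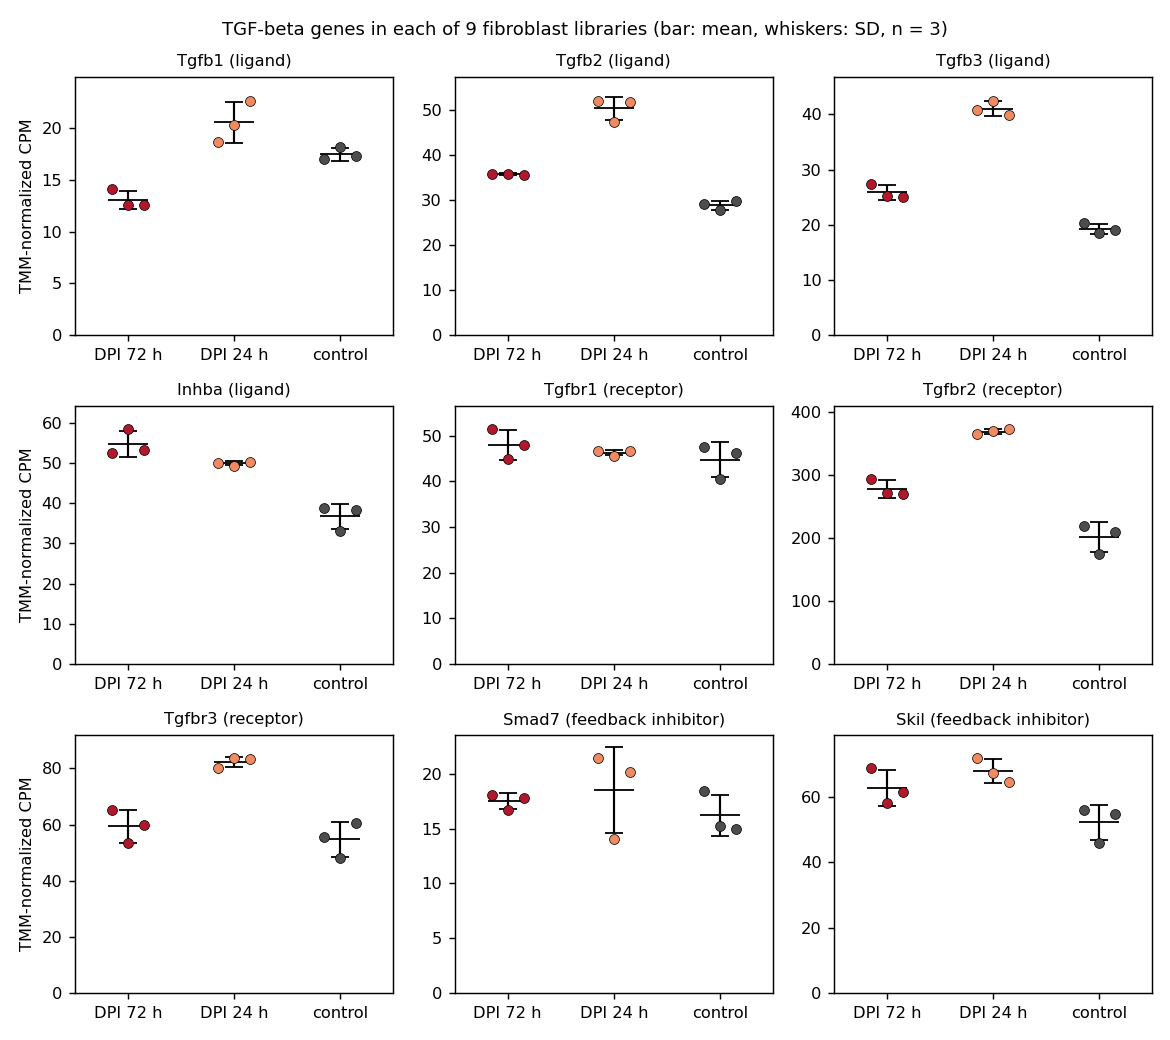
Normalised level (CPM, linear axes from 0) of each of the 9 genes in every library, grouped as DPI 72 h, DPI 24 h and control; points are libraries, horizontal bars are group means and whiskers are the SD (n = 3). Tgfb3 lies between 39.9 and 42.5 CPM in the DPI 24 h libraries, above every DPI 72 h library (24.96 to 27.4 CPM) and every control (18.5 to 20.3 CPM).

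Of the ligand genes, Tgfb3 moved furthest at 24 h. It encodes TGF-beta 3 and lies on chromosome 12 from 86056745 to 86079041 (GRCm38, minus strand). Its level was 27.4, 25.3 and 24.96 CPM in DPI 72 h libraries, 40.7, 42.5 and 39.9 CPM in DPI 24 h libraries, and 20.3, 18.5 and 19.0 CPM in controls. The 3 groups did not overlap, with 24 h highest, 72 h between and controls lowest. Tgfb3 rose 2.13-fold at 24 h, a log2 fold change of 1.09 ± 0.072 (SE, edgeR adjusted p = 2.58e-06), and by 0.42 ± 0.074 at 72 h (edgeR adjusted p = 0.00416). Set directly against 24 h, it was lower at 72 h by a log2 fold change of -0.67 ± 0.071 (edgeR adjusted p = 7.63e-05). Antisense transcripts annotated over its exons, Gm37804 and Gm48008, had at most 2 counts in any library.

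Tgfb2, which encodes TGF-beta 2 and lies on chromosome 1 from 186622792 to 186705989 (minus strand), had the same order of groups. It measured 35.8, 35.8 and 35.5 CPM in DPI 72 h libraries, 52.0, 47.4 and 51.6 CPM in DPI 24 h libraries, and 29.0, 27.8 and 29.7 CPM in controls. Again no group overlapped another. The log2 fold change was 0.81 ± 0.065 at 24 h (SE, edgeR adjusted p = 1.03e-05), 0.31 ± 0.066 at 72 h (edgeR adjusted p = 0.0141), and -0.50 ± 0.064 for 72 h against 24 h (edgeR adjusted p = 2.97e-04). The 72 h call was lost when DPI 72 h replicate 1 or 2 was left out, at edgeR adjusted p = 0.0524 and 0.0581. The antisense gene Gm29491, which shares exonic bases with Tgfb2, had at most 3 counts.

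Tgfb1, which encodes TGF-beta 1 and lies on chromosome 7 from 25687002 to 25705077 (plus strand), went below controls at 72 h. Its level was 14.1, 12.5 and 12.6 CPM in DPI 72 h libraries, 18.7, 20.3 and 22.7 CPM in DPI 24 h libraries, and 17.0, 18.2 and 17.3 CPM in controls. All DPI 72 h libraries were under all controls, and all DPI 24 h libraries were over them. The 72 h change against controls was a log2 fold change of -0.42 ± 0.10 (SE, edgeR adjusted p = 0.0246). At 24 h the difference was 0.23 ± 0.097, which did not pass (edgeR adjusted p = 0.108), with a 95% interval of 0.018 to 0.45 before adjustment. At 72 h against 24 h Tgfb1 fell by 0.65 ± 0.099 (edgeR adjusted p = 8.89e-04). The 72 h call against controls was lost without control replicate 3 (edgeR adjusted p = 0.0587), DPI 72 h replicate 2 (0.0969) or DPI 72 h replicate 3 (0.0956).

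Inhba, on chromosome 13 from 16011851 to 16031621 (plus strand), encodes the subunit whose dimer is activin A, a ligand of related receptors that also signals through Smad2 and Smad3. It measured 52.5, 58.4 and 53.3 CPM in DPI 72 h libraries, 50.03, 49.4 and 50.4 CPM in DPI 24 h libraries, and 38.8, 33.1 and 38.2 CPM in controls. Every DPI library was above every control. The log2 fold change was 0.58 ± 0.076 at 72 h (SE, edgeR adjusted p = 7.20e-04) and 0.44 ± 0.076 at 24 h (edgeR adjusted p = 0.00177). Inhba was thus higher at both exposures without a call between them, where the difference was 0.13 ± 0.075 (edgeR adjusted p = 0.256, 95% interval -0.033 to 0.30), although all DPI 72 h libraries lay above all DPI 24 h libraries.

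Promoters of ligand genes that were and were not called higher at 24 h are shown because the levels parted within the family. Tgfb3, which moved furthest at 24 h, had no window and is missing here. Each is the 250 bases before the RefSeq start (GRCm38.p6), 5′ to 3′ on the gene's strand. Capitals mark matches on either strand to CAGAC, the core that Smad3 and Smad4 bind, or to the GC box GGGCGG. They also mark the AP-1 site TGANTCA and the cAMP response element TGACGTCA on either strand. The TATA box TATAAA was looked for on the gene's strand only. The windows are chr1:186705990-186706239 (minus strand) for Tgfb2, chr13:16011601-16011850 (plus strand) for Inhba and chr7:25686752-25687001 (plus strand) for Tgfb1.
Tgfb2: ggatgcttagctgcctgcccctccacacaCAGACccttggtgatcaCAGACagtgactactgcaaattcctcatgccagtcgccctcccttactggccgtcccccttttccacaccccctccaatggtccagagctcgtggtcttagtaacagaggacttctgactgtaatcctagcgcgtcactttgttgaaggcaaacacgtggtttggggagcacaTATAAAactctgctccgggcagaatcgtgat
Inhba: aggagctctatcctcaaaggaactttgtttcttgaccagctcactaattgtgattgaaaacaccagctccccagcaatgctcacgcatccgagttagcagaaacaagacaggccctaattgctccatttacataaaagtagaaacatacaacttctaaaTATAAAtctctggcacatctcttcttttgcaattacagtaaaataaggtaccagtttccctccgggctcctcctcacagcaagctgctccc
Tgfb1: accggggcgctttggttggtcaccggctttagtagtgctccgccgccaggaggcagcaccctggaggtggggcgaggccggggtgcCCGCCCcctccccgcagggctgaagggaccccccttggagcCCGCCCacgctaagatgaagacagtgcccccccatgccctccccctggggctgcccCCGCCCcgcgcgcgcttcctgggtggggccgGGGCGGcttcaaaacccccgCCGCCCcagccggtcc
The Tgfb2 window held CAGAC 2 times, 221 and 204 bases before the start, and TATAAA 31 bases before it. The Inhba window held TATAAA, 91 bases before the start. The Tgfb1 window held 5 GC boxes, at 164, 123, 67, 36 and 16 bases, and none of the other motifs. No match overlapped another. Of 32851 promoter windows of the same length, 42.2% held CAGAC, 32.7% GGGCGG, 6.75% TGANTCA, 1.55% TGACGTCA and 7.59% TATAAA. These matches describe letters in the windows, and binding was not measured.

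Of the receptor genes, Tgfbr2 and Tgfbr3 rose at 24 h and Tgfbr1 did not pass. Tgfbr2 encodes the type II receptor that captures the ligand, and lies on chromosome 9 from 116084293 to 116175360 (minus strand). It measured 294, 271 and 269 CPM in DPI 72 h libraries, 365, 369 and 372 CPM in DPI 24 h libraries, and 220, 175 and 210 CPM in controls. The groups did not overlap, with 24 h highest and controls lowest, and control replicate 2 was the lowest library of all. The log2 fold change was 0.87 ± 0.083 at 24 h (SE, edgeR adjusted p = 3.27e-05), 0.47 ± 0.082 at 72 h (edgeR adjusted p = 0.00464), and -0.41 ± 0.082 for 72 h against 24 h (edgeR adjusted p = 0.00509). Without control replicate 2, Tgfbr2 stood at 0.78 for 24 h and 0.37 for 72 h, both still called.

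Tgfbr3, or betaglycan, is a co-receptor that presents ligand, TGF-beta 2 above all, to the type II receptor. The gene lies on chromosome 5 from 107106570 to 107289629 (minus strand). It measured 65.0, 53.4 and 59.9 CPM in DPI 72 h libraries, 80.3, 83.6 and 83.3 CPM in DPI 24 h libraries, and 55.6, 48.2 and 60.6 CPM in controls. The DPI 24 h libraries lay above all others, while the DPI 72 h and control ranges overlapped. The log2 fold change was 0.59 ± 0.093 at 24 h (SE, edgeR adjusted p = 0.00105) and -0.47 ± 0.093 for 72 h against 24 h (edgeR adjusted p = 0.0044). At 72 h against controls it was 0.12 ± 0.094 (edgeR adjusted p = 0.512, 95% interval -0.089 to 0.33). The transcript Gm43422, annotated on the same strand over part of its exons, had at most 8 counts.

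Tgfbr1, the type I receptor that phosphorylates Smad2 and Smad3, lies on chromosome 4 from 47353222 to 47414931 (plus strand). It measured 51.3, 44.8 and 47.9 CPM in DPI 72 h libraries, 46.5, 45.6 and 46.6 CPM in DPI 24 h libraries, and 47.6, 40.4 and 46.2 CPM in controls. All 3 ranges overlapped. The log2 difference was 0.049 ± 0.078 at 24 h (SE, edgeR adjusted p = 0.701, 95% interval -0.12 to 0.22) and 0.10 ± 0.078 at 72 h (edgeR adjusted p = 0.498, 95% interval -0.071 to 0.28). Between the exposures it was 0.053 ± 0.078 (edgeR adjusted p = 0.69, 95% interval -0.12 to 0.23). Without control replicate 2 the 24 h difference of Tgfbr1 turned to -0.021.

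The promoters of the type II and type I receptor genes are shown because they belong to partners that act in 1 complex and differed in response. They are the same 250-base windows, with capitals for the same motifs, at chr9:116175364-116175613 (minus strand) for Tgfbr2 and chr4:47352972-47353221 (plus strand) for Tgfbr1. RefSeq's start of Tgfbr2 is a few bases upstream of the gene's end in GENCODE, and RefSeq gives Tgfbr1 a further start inside the gene that is not shown.
Tgfbr2: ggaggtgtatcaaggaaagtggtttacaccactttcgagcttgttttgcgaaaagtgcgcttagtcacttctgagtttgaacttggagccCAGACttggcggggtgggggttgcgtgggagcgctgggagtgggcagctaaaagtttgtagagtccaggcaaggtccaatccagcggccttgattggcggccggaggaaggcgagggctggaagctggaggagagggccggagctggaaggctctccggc
Tgfbr1: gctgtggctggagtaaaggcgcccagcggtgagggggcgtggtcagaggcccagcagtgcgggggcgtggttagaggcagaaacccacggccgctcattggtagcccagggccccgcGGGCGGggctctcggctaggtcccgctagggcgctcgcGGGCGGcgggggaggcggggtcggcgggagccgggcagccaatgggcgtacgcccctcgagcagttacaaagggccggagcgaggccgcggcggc
The Tgfbr2 window held CAGAC once, 160 bases before the start, and none of the other motifs. The Tgfbr1 window held 2 GC boxes, 133 and 95 bases before the start, and none of the others. The window at the further Tgfbr1 start, not shown, held 1 CAGAC, 203 bases before that start, and no GC box. Tgfbr3, which also rose at 24 h, had no window. Whether the motifs bear on the response was not tested. The shares of all promoter windows that hold each motif are those given for the ligand genes.

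**Figure D2:**
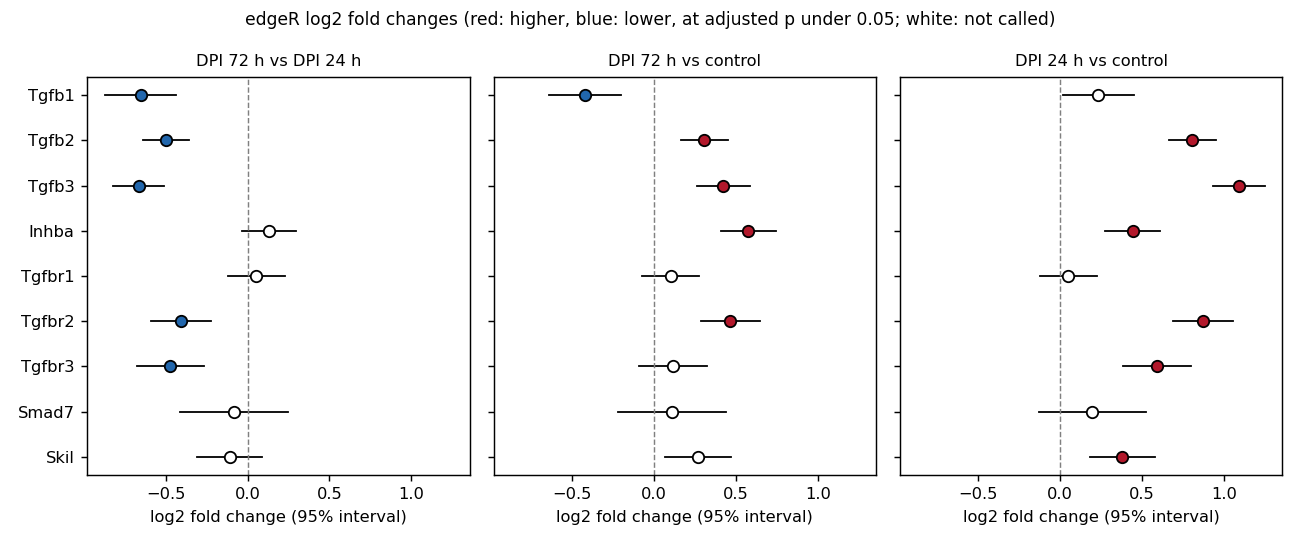
Log2 fold change of the 9 genes in the panels DPI 72 h against DPI 24 h, DPI 72 h against control and DPI 24 h against control, with bars for the 95% interval of the fit before adjustment; coloured points (red higher, blue lower) passed an edgeR adjusted p of 0.05 and white points did not. Tgfb3 reaches 1.09 at 24 h, Tgfb1 is at -0.42 at 72 h, and the intervals of Tgfbr1 and Smad7 span 0 in all 3 comparisons.

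Of the induced inhibitors, Skil rose at 24 h and Smad7 did not pass in any comparison. Skil encodes SnoN, a corepressor that binds Smad proteins at target genes, and lies on chromosome 3 from 31095058 to 31122577 (plus strand). It measured 68.8, 58.1 and 61.5 CPM in DPI 72 h libraries, 71.7, 67.1 and 64.5 CPM in DPI 24 h libraries, and 55.8, 46.0 and 54.6 CPM in controls. All DPI libraries were above all controls, and the DPI groups overlapped each other. The log2 fold change was 0.38 ± 0.091 at 24 h (SE, edgeR adjusted p = 0.0116), a call lost without DPI 24 h replicate 1 (edgeR adjusted p = 0.0528). At 72 h it was 0.27 ± 0.091 and did not pass (edgeR adjusted p = 0.103), though it did with no low-count filter (edgeR adjusted p = 0.0356). At 72 h against 24 h the difference was -0.11 ± 0.091 (edgeR adjusted p = 0.448, 95% interval -0.31 to 0.090).

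Smad7, on chromosome 18 from 75367529 to 75395935 (plus strand), encodes an inhibitory Smad that blocks the type I receptor. It measured 18.1, 16.7 and 17.8 CPM in DPI 72 h libraries, 21.4, 14.1 and 20.2 CPM in DPI 24 h libraries, and 18.4, 15.3 and 14.97 CPM in controls. The groups overlapped, and DPI 24 h held both the highest and the lowest library. The log2 difference was 0.20 ± 0.149 at 24 h (SE, edgeR adjusted p = 0.382, 95% interval -0.13 to 0.52) and 0.11 ± 0.149 at 72 h (edgeR adjusted p = 0.723, 95% interval -0.22 to 0.44). Between the exposures, 72 h over 24 h, it was -0.083 ± 0.148 (edgeR adjusted p = 0.752), and it turned to 0.031 without DPI 24 h replicate 1.

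Levels were set beside each other between genes per length, as RPKM (CPM per kilobase of exonic length). The length is that of all annotated exons of a gene together, not of the transcripts expressed. Ranks between genes therefore depend on it. On that scale Tgfbr2 was the highest of the 9 in every group, at 34.0 ± 1.7 RPKM in DPI 72 h, 45.1 ± 0.47 RPKM in DPI 24 h and 24.6 ± 2.9 RPKM in control cells (SD, n = 3 each). Tgfbr3 ranked 2 in every group, at 9.08 ± 0.89, 12.6 ± 0.28 and 8.37 ± 0.95 RPKM in DPI 72 h, DPI 24 h and control cells. Its range overlapped that of the gene below it in both DPI groups, Inhba at 72 h and Tgfb3 at 24 h, but not in controls, where Tgfbr1 followed.
On the RPKM scale the lowest level belonged to Tgfb1 in every group, at 2.59 ± 0.17, 4.08 ± 0.40 and 3.47 ± 0.12 RPKM in DPI 72 h, DPI 24 h and control cells. Smad7 was next above it, and the ranges of these genes overlapped in DPI 24 h and control cells but not in DPI 72 h cells. By mean CPM, Smad7 was below Tgfb1 in DPI 24 h (18.55 against 20.56) and control cells (16.21 against 17.49). In DPI 72 h cells Smad7 was above it by CPM too (17.53 against 13.07). The other 5 genes lay between. Tgfb3 ranked 4 at 72 h, at 7.65 ± 0.39 RPKM, and 3 at 24 h, at 12.1 ± 0.39 RPKM. In controls it ranked 5, at 5.70 ± 0.27 RPKM, with a range that overlapped those of Inhba and Skil.

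In the make-up of the TGF-beta transcripts, the Tgfb1 and Tgfb3 shares did not overlap between DPI and control libraries. The same shares overlapped between DPI 72 h and DPI 24 h libraries. The sums, shares and ratio given here depend on the exonic lengths used. Summed per length over Tgfb1, Tgfb2 and Tgfb3, the level was 16.4 ± 0.58 RPKM in DPI 72 h, 24.9 ± 0.26 RPKM in DPI 24 h and 14.2 ± 0.25 RPKM in control cells (SD, n = 3 each). Tgfb3 gave 46.6 ± 0.72%, 48.7 ± 1.9% and 40.3 ± 1.3% of that sum in DPI 72 h, DPI 24 h and control cells. Tgfb1 gave 15.8 ± 0.51% in DPI 72 h, 16.4 ± 1.4% in DPI 24 h and 24.5 ± 1.3% in control cells, and all DPI libraries lay below all controls. Tgfb2 gave 37.6 ± 1.2% in DPI 72 h, 34.9 ± 1.7% in DPI 24 h and 35.2 ± 0.87% in control cells. Its DPI 24 h range overlapped both the DPI 72 h and the control range. The ratio of Tgfbr2 to Tgfbr1, per length, was 4.64 ± 0.18 in DPI 72 h, 6.37 ± 0.11 in DPI 24 h and 3.59 ± 0.12 in control cells, with no overlap between groups. With 3 libraries a group, an exact permutation test of such a single value cannot give a p under 0.1, and none was run on these shares.

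**Figure D3:**
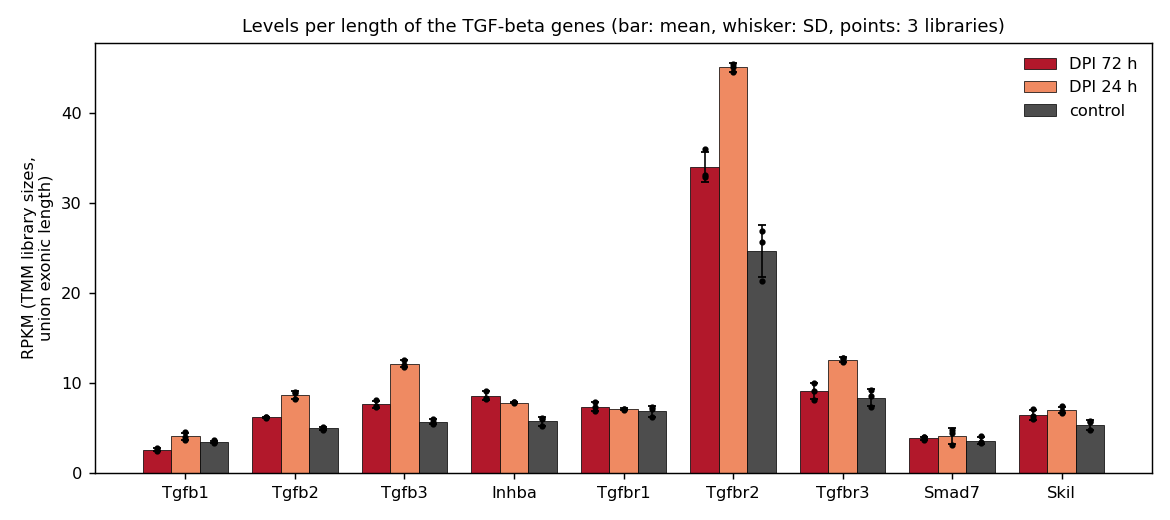
Level per length (RPKM, linear axis from 0) of the 9 genes in DPI 72 h, DPI 24 h and control libraries; bars are group means, whiskers the SD (n = 3) and points the libraries. Tgfbr2 stands above the rest in every group, at 34.0, 45.1 and 24.6 RPKM on average, and Tgfb1 is lowest in every group.

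Other genes of the pathway were counted in 7 lists of 120 genes, of which 96 were tested. Of these, 40 were higher and 14 lower at 24 h, 25 higher and 6 lower at 72 h, and 16 higher and 25 lower at 72 h against 24 h. Over all genes tested, 12.4% were higher and 12.3% lower at 24 h, 4.73% and 3.83% at 72 h, and 10.1% and 11.2% at 72 h against 24 h. The counts of each list below are to be read beside these shares, and several lists hold few genes. The lists were chosen with earlier results known, so their counts are a description. The median log2 fold change of the 96 was 0.27 at 24 h, 0.13 at 72 h and -0.11 for 72 h against 24 h. Control replicate 2 bore on the last comparison: without it 57 pathway genes were called, against 41 with it, and over all genes 4729 were called, against 3001.

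Of 13 genes tested that store and activate the latent ligand, 8 were higher and 1 lower at 24 h (median log2 fold change 0.40), and 4 higher and 1 lower at 72 h (0.25). At 72 h against 24 h, 1 was higher and 5 lower. Itgav, the integrin subunit shared by the integrins that free the ligand, averaged 247 CPM in DPI 72 h, 275 CPM in DPI 24 h and 181 CPM in control cells. Its log2 fold change was 0.60 ± 0.071 at 24 h (SE, edgeR adjusted p = 1.47e-04) and 0.45 ± 0.071 at 72 h (edgeR adjusted p = 0.00225). Itgb8, its partner in an activating integrin, rose by 0.95 ± 0.115 at 24 h (edgeR adjusted p = 1.84e-04), and its 72 h difference of 0.25 did not pass. Ltbp1 and Ltbp3, which tether the latent complex to matrix, rose by 0.56 and 0.42 at 72 h and by 0.44 and 0.29 at 24 h (edgeR adjusted p from 1.07e-04 to 0.00563). Ltbp4, of the same family, went the other way at 24 h, with 13.9 CPM against 33.3 CPM in controls, a log2 fold change of -1.25 ± 0.095 (edgeR adjusted p = 6.56e-06), and was at -0.043 at 72 h. Lrrc32 encodes GARP, which holds latent ligand on the cell surface. It was at 0.999 CPM in DPI 72 h, 4.02 CPM in DPI 24 h and 3.04 CPM in control cells, a log2 fold change of -1.60 ± 0.247 at 72 h (edgeR adjusted p = 0.002).

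Of 12 receptors and co-receptors tested beside the 3 above, 5 were higher and 1 lower at 24 h (median 0.23), and 2 higher and none lower at 72 h (0.14). The count of 0 was the same at an unadjusted edgeR p under 0.05 and with DESeq2 and limma voom. Nrp1, neuropilin 1, a co-receptor that also binds VEGF and semaphorins, averaged 39.6 CPM in DPI 72 h, 62.8 CPM in DPI 24 h and 22.8 CPM in control cells. Its log2 fold change was 1.46 ± 0.128 at 24 h (SE, edgeR adjusted p = 1.94e-05) and 0.80 ± 0.130 at 72 h (edgeR adjusted p = 0.00277). Sdc2, the heparan sulfate proteoglycan syndecan 2, rose by 0.45 at 24 h (edgeR adjusted p = 1.52e-04) and stood at 0.14 at 72 h, uncalled. Acvr1, a type I receptor for BMPs and activins, rose by 0.50 at 24 h (edgeR adjusted p = 6.92e-04). Its 72 h value of 0.28 passed at edgeR adjusted p = 0.0386 and was lost in 8 of 9 fits that left out 1 library, all but the one without DPI 24 h replicate 2, at 0.0506 to 0.116. Acvr1b, the type I receptor of activin, fell by 0.56 ± 0.107 at 24 h (edgeR adjusted p = 0.00352), and was at -0.22 at 72 h, uncalled.

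Few of the other ligands were expressed enough to test, 6 of 16 activin, BMP and GDF genes. Of these, 1 was higher and 1 lower at 24 h (median -0.079), and none was called at 72 h (-0.043) by edgeR, also at an unadjusted p under 0.05, or by DESeq2 or limma voom. Gdf11, close kin of myostatin, averaged 9.17 CPM in DPI 72 h, 15.9 CPM in DPI 24 h and 8.67 CPM in control cells, and rose by 0.87 ± 0.138 at 24 h (SE, edgeR adjusted p = 0.00106). Gdf15, a stress-induced member, was at 1.37, 0.854 and 2.32 CPM in DPI 72 h, DPI 24 h and control cells. Its 24 h change of -1.44 (edgeR adjusted p = 0.0373) was lost in 7 of 9 fits without 1 library, all but those without control replicate 3 or DPI 24 h replicate 2, at 0.0521 to 0.117. Bmp4 was at 0.049 at 24 h and -0.18 at 72 h, and Inha, the inhibin alpha subunit, at -0.87 at 24 h and 0.67 at 72 h, all uncalled.

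Of 9 secreted antagonists tested, 4 were higher and 1 lower at 24 h (median 0.40), 1 was higher and none lower at 72 h (-0.26), and 1 was higher and 4 lower at 72 h against 24 h (-0.56). For the count of 0 at 72 h, 1 gene was lower at an unadjusted edgeR p under 0.05 and 0 with DESeq2 or limma voom. The proteoglycans biglycan and decorin, which bind TGF-beta, differed widely in level. Bgn averaged 955, 1073 and 750 CPM in DPI 72 h, DPI 24 h and control cells, and rose by 0.52 at 24 h (edgeR adjusted p = 7.94e-04). At 72 h Bgn was up by 0.35 (edgeR adjusted p = 0.0181), a call lost without control replicate 3, DPI 72 h replicate 2 or DPI 72 h replicate 3 (0.0624 to 0.0723). Dcn averaged 1.12, 3.52 and 1.32 CPM in DPI 72 h, DPI 24 h and control cells and rose by 1.41 ± 0.316 at 24 h (SE, edgeR adjusted p = 0.00791), with -0.23 at 72 h, uncalled. Bmper, a regulator of BMP signalling, rose by 0.77 at 24 h (edgeR adjusted p = 0.0123) and was at -0.65 at 72 h, uncalled (0.0702), a value that passed without control replicate 2 (0.0154). Fst encodes follistatin, which binds activin. It rose by 0.53 at 24 h (edgeR adjusted p = 0.0203), lost without control replicate 1 or DPI 24 h replicate 2 (0.0536 to 0.0847), and was at -0.32 at 72 h, uncalled. Chrd, the BMP antagonist chordin, measured 9.57 to 14.6 CPM in DPI 72 h, 4.95 to 6.31 CPM in DPI 24 h and 13.2 to 16.5 CPM in control libraries and changed by -1.39 ± 0.173 at 24 h (SE, edgeR adjusted p = 2.20e-04), with -0.26 at 72 h, uncalled.

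Of the 7 Smad genes other than Smad7, 1 was higher and 1 lower at 24 h (median 0.16), and 2 higher and none lower at 72 h (0.16). The count of 0 was the same at an unadjusted edgeR p under 0.05 and with DESeq2 and limma voom. Smad3, which carries the signal to DNA, averaged 79.9 CPM in DPI 72 h, 123 CPM in DPI 24 h and 62.4 CPM in control cells. Its log2 fold change was 0.97 ± 0.083 at 24 h (SE, edgeR adjusted p = 1.56e-05) and 0.36 ± 0.084 at 72 h (edgeR adjusted p = 0.0233). The 72 h call of Smad3 was lost without control replicate 3, DPI 72 h replicate 1 or DPI 72 h replicate 2 (0.0655 to 0.097). Smad2, its partner, rose by 0.30 at 72 h (edgeR adjusted p = 0.0171), lost without control replicate 3 or DPI 72 h replicate 2 (0.0663 to 0.0889), and was at 0.16 at 24 h, uncalled. Smad4, the shared partner of all activated Smads, was at -0.042 at 24 h and -0.035 at 72 h, and Smad5, a BMP Smad, at 0.10 at 24 h and 0.16 at 72 h, all uncalled. Smad1, also a BMP Smad, was at -0.20 at 24 h (edgeR adjusted p = 0.0407). That call was lost in 7 of 9 fits without 1 library, all but those without control replicate 2 or DPI 72 h replicate 1, at 0.0505 to 0.12.

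Of 15 other feedback and corepressor genes, 5 were higher and 2 lower at 24 h (median 0.087), and 1 higher and 1 lower at 72 h (0.053). Pmepa1, induced by the pathway and a sink for Smad2 and Smad3, averaged 7.72 CPM in DPI 72 h, 18.5 CPM in DPI 24 h and 7.33 CPM in control cells. Its log2 fold change was 1.33 ± 0.130 at 24 h (SE, edgeR adjusted p = 4.16e-05) and 0.073 ± 0.135 at 72 h (edgeR adjusted p = 0.81). Ski, the corepressor related to Skil, rose by 0.34 at 24 h (edgeR adjusted p = 0.00414) and was at 0.11 at 72 h, uncalled. Ppm1a, a phosphatase of Smads, fell by 0.24 at 24 h (edgeR adjusted p = 0.0161), lost without DPI 24 h replicate 2 (0.0751). Smurf2, a ubiquitin ligase that works with Smad7, was at 0.24 at 72 h, uncalled, and at 0.34 at 24 h (edgeR adjusted p = 0.0175), lost without DPI 24 h replicate 1 or 3 (0.0576 to 0.0768). Bambi, a receptor-like decoy, was at 0.44 at 24 h, uncalled (0.15), which passed without control replicate 2 (0.0469), and at -0.060 at 72 h. Ldlrad4, a relative of Pmepa1, was at 0.62 at 24 h and 0.64 at 72 h (edgeR adjusted p = 0.0221 and 0.0421). The 24 h call was lost without any 1 of the DPI 24 h libraries (0.0578 to 0.0713), and the 72 h call in 8 of 9 fits, all but the one without control replicate 3 (0.0538 to 0.131). Pml, whose cytoplasmic form takes part in Smad signalling, was at -0.32 at 72 h (edgeR adjusted p = 0.0447), lost in 8 of 9 fits, all but the one without control replicate 2 (0.0575 to 0.142).

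Of 34 target genes tested, 16 were higher and 7 lower at 24 h (median 0.29), and 15 higher and 4 lower at 72 h (0.37). Classical targets did not move as 1 group. Ctgf, the matricellular growth factor CCN2, averaged 165, 179 and 110 CPM in DPI 72 h, DPI 24 h and control cells, with a log2 fold change of 0.70 ± 0.095 at 24 h (SE, edgeR adjusted p = 4.09e-04) and 0.59 ± 0.095 at 72 h (edgeR adjusted p = 0.00277). Tgfbi, an adhesion protein, averaged 3.15, 1.04 and 0.843 CPM in DPI 72 h, DPI 24 h and control cells, and rose by 1.90 ± 0.34 at 72 h (edgeR adjusted p = 0.00511), with 0.31 at 24 h, uncalled. Acta2, the smooth muscle actin that marks myofibroblasts, went lower at both exposures. It averaged 4.78 CPM in DPI 72 h, 11.7 CPM in DPI 24 h and 20.6 CPM in control cells, a log2 fold change of -2.10 ± 0.156 at 72 h (edgeR adjusted p = 1.42e-05) and -0.81 ± 0.144 at 24 h (edgeR adjusted p = 0.00218). Col1a1, a chain of type I collagen, was higher at both, by 1.04 at 72 h and 1.29 at 24 h, and Hmga2, a chromatin protein, by 0.57 at 72 h and 1.498 at 24 h (edgeR adjusted p from 2.78e-06 to 0.00605 for both genes and times). Vegfa, the vascular growth factor, was at 126, 50.8 and 93.5 CPM in DPI 72 h, DPI 24 h and control cells, higher by 0.43 at 72 h (edgeR adjusted p = 0.00138) and lower by a log2 fold change of -0.88 at 24 h (edgeR adjusted p = 5.12e-06).

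**Figure D4:**
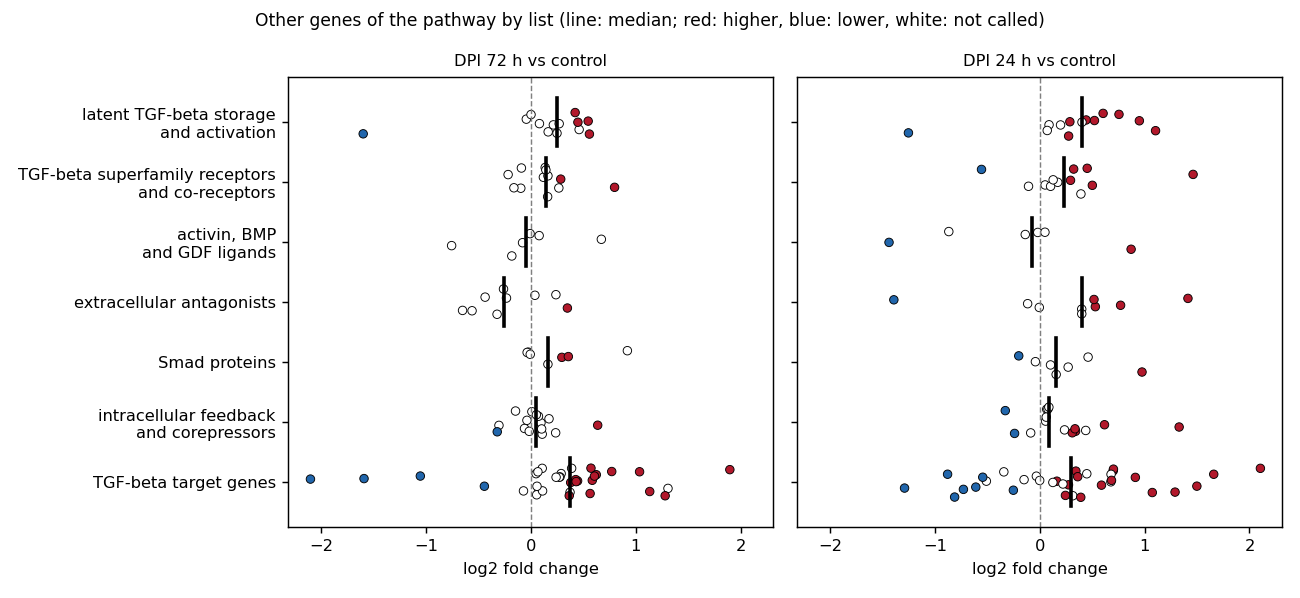
Log2 fold change of each tested gene of the 7 pathway lists, at DPI 72 h against control (left) and DPI 24 h against control (right); each point is a gene, red if higher and blue if lower at an edgeR adjusted p under 0.05, white if not, and the line is the list's median. Target genes spread widest, from Acta2 at -2.10 to Tgfbi at 1.90 at 72 h.

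Profiles like those of the 9 genes were looked for over the 9 libraries, by Pearson correlation of log2 CPM among 9923 genes with a mean of at least 5 CPM. Points within a group are replicates, and the groups differ, so high values describe a shared order of the 3 groups. Tgfb3 was most like Il1rl1, the receptor of interleukin 33 (r = 0.996). Tgfb2 was most like Tnfaip1 (0.995) and Insig1, a sterol-sensing protein (0.992). Tgfbr2 was most like Nes, the intermediate filament nestin (0.998), and Acan, the cartilage proteoglycan aggrecan (0.996). Acan averaged 24.6 CPM in DPI 72 h, 48.8 CPM in DPI 24 h and 10.6 CPM in control cells, the same order as Tgfbr2. Tgfbr3 was most like Sec61a1, a channel of the endoplasmic reticulum (0.990), and Sbno2 (0.985). Inhba was most like Fam126a (0.995) and E2f2, a cell cycle transcription factor (0.984), and Skil was most like the kinase gene Plk2 (0.984) and Ptgs2, cyclooxygenase 2 (0.978). Tgfb1 was most like Tmem199 (0.980) and Grn, the lysosomal protein progranulin (0.979). Grn averaged 145, 301 and 230 CPM in DPI 72 h, DPI 24 h and control cells, so it too was lowest at 72 h. All correlations are over 9 libraries and are given as a description.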

How the data were processed

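RNA from mouse adult fibroblasts was column-purified, made into libraries with an Illumina TruSeq RNA kit and sequenced on a HiSeq2500, per the labels' protocols. STAR, RSEM, cutadapt, Trim Galore, edgeR and limma are listed without versions in the submitters' processing notes, with the build GRCm38. Their annotation, strand setting and any rounding were not given in the sources used here, so antisense partners cannot be told apart. The authors deposited a table of whole-number counts for 53465 genes and a second table of 17722 genes, those with a CPM above 1 when summed over libraries. All 159498 values of the second equalled the deposited counts, and the first was used.

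filterByExpr kept 14088 genes, which held at least 99.9% of counts in every library. With TMM scaling, all 9 libraries (3 per group) were fitted by edgeR 4.0.16 in R 4.3.3 (glmQLFit and a two-sided glmQLFTest, a mean for each group). Benjamini-Hochberg adjustment ran over the genes tested, and the threshold was 0.05. Standard errors are the log2 fold change over the root of F, and 95% intervals are unadjusted. CPM is TMM-normalized. RPKM uses the exonic length in GENCODE (GRCm38), which also gave symbols and coordinates. Ctgf was found under Ccn2 through RefSeq synonyms. No pair of libraries agreed within sampling noise. The fit was tested on simulated data. The outcome is not reported here, so no error rate is claimed from it.

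The members and lists were chosen with earlier results of these data known. All 9 members are described. Of each pathway list, the 3 genes with the smallest p at 24 h and at 72 h are named, plus a fixed set with Ctgf, Tgfbi, Pmepa1, Bambi, Smad2, Smad3, Smad4, Fst and Acvr1b. For each called member, the 2 genes with the most similar profile are named. Not every gene these rules select is reported here. Alternatives were RLE and upper quartile scaling, no filter, DESeq2 1.42.0, limma voom 3.58.1, only the 6 libraries compared, leaving out each library, a replicate block and a threshold of 0.01. Replicate numbers were treated as names only. Promoter windows of the RefSeq table (GRCm38.p6) matched Tgfb1, Tgfb2, Inhba, Tgfbr1 and Tgfbr2.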

Additional observations from a re-analysis of the deposited data

Results flagged for a closer look

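The direct edgeR test of DPI 72 h against DPI 24 h called 26 of the TGF-beta genes and named pathway genes. Over all genes tested, 21.3% were called in this comparison. Apart from a fixed set, the named pathway genes were picked for the smallest p against controls in these data. Their count is therefore a description. Each value is the log2 fold change of 72 h over 24 h. Of the 9 TGF-beta genes, those called were Tgfb3 (-0.67), Tgfb1 (-0.65), Tgfb2 (-0.50), Tgfbr3 (-0.47) and Tgfbr2 (-0.41). Among genes of latent ligand and co-receptors they were Ltbp4 (1.21), Lrrc32 (-2.00), Itgb8 (-0.70), Nrp1 (-0.66), Sdc2 (-0.31) and Acvr1b (0.34). Among ligands and antagonists they were Inha (1.54), Chrd (1.13), Gdf11 (-0.79), Fst (-0.85), Bmper (-1.42) and Dcn (-1.65). Among Smads and feedback genes they were Smad3 (-0.62), Pmepa1 (-1.26), Pml (-0.41), Ski (-0.23) and Ppm1a (0.20). Among targets they were Tgfbi (1.58), Vegfa (1.31), Hmga2 (-0.93) and Acta2 (-1.29).

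Of these calls, 4 were lost when some libraries were left out. Acvr1b passed at edgeR adjusted p = 0.0473 and was lost in 6 of 9 such fits (0.0542 to 0.17), without control replicate 3, DPI 24 h replicate 2 or 3, or any DPI 72 h library. Inha passed at edgeR adjusted p = 0.0462 and was lost in 6 (0.0622 to 0.18), without control replicate 3, any DPI 24 h library, or DPI 72 h replicate 1 or 3. Ski passed at edgeR adjusted p = 0.0323 and was lost in 6 (0.0615 to 0.115), without any of the DPI libraries. Ppm1a passed at edgeR adjusted p = 0.0388 and was lost in 7 (0.0515 to 0.154), without control replicate 3 or any of the DPI libraries.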

How the results depend on the processing

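All 27 values of the 9 genes kept their sign in every alternative run except Tgfbr1 at 24 h (-0.021 to 0.090 with 1 library left out, below 0 without control replicate 2) and Smad7 at 72 h against 24 h (-0.24 to 0.031, above 0 without DPI 24 h replicate 1). A threshold of 0.01 gave 1904 genes at 24 h, 627 at 72 h and 1590 for 72 h against 24 h, and 3 of the 9 genes at 72 h. Fitting only the 6 libraries compared gave 774 genes at 72 h and 4660 for 72 h against 24 h. With 1 library left out, counts over all genes ran from 2351 to 4419 at 24 h, 736 to 1965 at 72 h and 1953 to 4729 for 72 h against 24 h. At 72 h they were 736 without DPI 72 h replicate 2, 782 without DPI 72 h replicate 1, 801 without DPI 72 h replicate 3 and 1965 without control replicate 2. For 72 h against 24 h they were 1953 without DPI 24 h replicate 3 and 4729 without control replicate 2. For the 9 genes the counts were 5 to 6, 3 to 5 and 5 to 5, and for pathway genes 42 to 55, 23 to 34 and 32 to 57, at 24 h, at 72 h and for 72 h against 24 h. A replicate block gave 6, 4 and 5 of the 9 genes, 50, 28 and 36 pathway genes, and 3000, 911 and 2533 of all genes in the same comparisons. Under that replicate block Tgfb1 at 72 h had edgeR adjusted p = 0.0619. For same-numbered pairs, deviations of log2 CPM from the group mean correlated at -0.0925 to 0.00265. In 0 of 18 cases was the best partner in another group the same-numbered one. With 3 libraries a group, whose deviations are bound to sum to 0, these values cannot exclude a pairing. Uncalled pathway values that turned sign with 1 library left out ranged as follows. At 24 h, Bmp4 ran from -0.0056 to 0.095, Pml from -0.0035 to 0.16 and Smad4 from -0.073 to 0.0020. At 72 h, Bambi ran from -0.24 to 0.11, Smad4 from -0.083 to 0.0095, Gdf11 from -0.061 to 0.17, Pmepa1 from -0.053 to 0.17, Smad1 from -0.070 to 0.013 and Ltbp4 from -0.13 to 0.0027. At 72 h against 24 h, Smad4 ran from -0.041 to 0.044 and Ldlrad4 from -0.029 to 0.094. The cause was not tested. Other scalings moved the median of all genes by at most 0.047. With upper quartile scaling, 1436 of all genes were higher and 2097 lower at 24 h (1750 and 1728 with TMM), 594 higher and 597 lower at 72 h (666 and 540 with TMM), and 1548 higher and 1399 lower at 72 h against 24 h (1427 and 1574 with TMM). Low levels limit precision for Gdf15, Inha, Tgfbi, Dcn and Lrrc32.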
